A study of Mus musculus with 38 samples.

Results

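The 81 genes described here encode proteins of the cytoplasmic ribosome in mouse. They were taken from the gene tables as all protein-coding genes whose symbol is Rpl or Rps followed by a number and at most 1 of the letters a, x, l or y, together with Rpsa, Rplp0, Rplp1 and Rplp2. The tables held 78202 genes in all. Of the 81 members, 49 belong to the large and 32 to the small ribosomal subunit, and all 81 were among the 70381 genes that passed the filter on low values.

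The ribosome joins a small subunit, which reads the mRNA, to a large subunit, which forms the peptide bonds. Ribosomal protein genes are short, are transcribed in nearly every cell, and carry many snoRNA genes in their introns. Many of their transcripts start in a run of pyrimidines that links their translation to growth signals, and they have left numerous processed pseudogenes across the genome. The nuclear lamina, by contrast, is the protein layer under the nuclear envelope along which mostly silent chromatin lies, and LAP2B (made by Tmpo), LMNB1 (lamin B1) and the lamin B receptor LBR are parts of this envelope.

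CUT&RUN uses an antibody to bring a nuclease to its target, so that nearby DNA is released and sequenced. It was run on naive mouse embryonic stem cells (mESCs, in 2i and LIF) and on epiblast-like cells (EpiLCs) made from them with 20 ng/mL FGF and 12 ng/mL Activin A and collected at 48 h. LAP2B was mapped at both stages in wildtype (WT), LBR knockout (LBRKO), Lamins triple knockout (TKO) and Lamins and LBR quadruple knockout (QKO) cells, and LMNB1 and an IGG control in WT only, with 3 libraries in each of 12 groups and 200000 cells per replicate. WT and TKO are separate lines, QKO is 1 clone made from TKO, and LBRKO was made from WT. Per the study's methods TKO cells carry an extra chromosome 8 and some WT cells extra chromosomes 6 and 8. LAP2 alpha, a form inside the nucleus, shares part of the region this antibody was raised to, though the study describes LAP2B as the main form seen. The study did not use LAP2B as a stand-in for the lamina in EpiLCs. Its reason was that LAP2B signal in WT EpiLCs lay both inside and outside lamina-associated domains.

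The reads are genomic DNA, so neither the labelled cell state nor the loss of a protein could be checked from marker genes. Recovered reads summed over the gene table were 12028659 to 45689196 per library, and the median member had 26 to 205 reads. Nothing in the labels says that replicates were separate cultures, so the p-values measure the spread between these libraries. Values were read on the relative scale, where the median gene of each library is 1, and on the spike-in scale, which is the deposited value. A change was called at a limma adjusted p under 0.05 over all genes tested.

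Members covered 2 to 32 bins of 1 kb, with a median of 5, against 19 for all protein-coding genes. They lay among more genes than usual, with a median of 6 other protein-coding genes within 100 kb against 4. Altogether 33 members shared a bin with another protein-coding gene, 29 held at least 1 snoRNA gene, and 57 had a processed pseudogene named after them. Among the 33 were Rpl3, Rpl5, Rpl10, Rpl36, Rps4l and Rps28, described below, whose values thus include bins of another gene. No mapping-quality filter is named in the sources used here, so reads of exons that a near-identical pseudogene repeats are uncertain. Chromosome 7 held 14 of the 81 members.

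Start regions are shown for Rpl23 and Rpl3, which changed strongly in naive QKO. They are also shown for Rpl10 and Rps4x with their copies Rpl10l and Rps4l, whose LMNB1 levels differ. Each is 60 bases of GRCm39, from 40 before the GENCODE M39 canonical start, 5′ to 3′. Capitals mark a C followed by at least 4 pyrimidines that begins between 5 bases before and 10 bases after the start.
Rpl23, chr11:97673287-97673346, minus strand: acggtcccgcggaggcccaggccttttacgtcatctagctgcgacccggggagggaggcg
Rpl3, chr15:79967588-79967647, minus strand: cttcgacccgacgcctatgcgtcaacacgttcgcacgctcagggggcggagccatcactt
Rpl10, chrX:73314416-73314475, plus strand: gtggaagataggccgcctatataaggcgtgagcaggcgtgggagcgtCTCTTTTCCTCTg
Rpl10l, chr12:66331162-66331221, minus strand: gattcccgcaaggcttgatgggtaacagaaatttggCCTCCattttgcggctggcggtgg
Rps4x, chrX:101232995-101233054, minus strand: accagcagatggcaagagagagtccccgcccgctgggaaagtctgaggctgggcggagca
Rps4l, chr6:148256058-148256117, plus strand: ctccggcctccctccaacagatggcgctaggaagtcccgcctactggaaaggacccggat

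Such a run was found at 27 of the 81 member starts (33.3%) and at 25.2% of 21683 protein-coding starts. The shares depend on the window. After these were seen, 3 more settings were tried, and all are given: RefSeq starts (GRCm38.p6) gave 36 of 72 member windows against 24.3% of all with a run inside a 20-base window, and 26.4% against 6.32% with the run at the start itself. GENCODE starts with a wider window and at least 6 pyrimidines gave 35.8% against 19.1%. In the 300 bases around the start, on either strand, CCGGAAG (the core bound by ETS factors) occurred in 30.9% of member windows against 10.3% of all, GGGCGG in 50.6% against 42.5%, TATAAA in 12.3% against 13.2% and AAGATGG in 7.41% against 5.70%.

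In WT naive cells most members had less LMNB1 and LAP2B per bin than the median gene. LMNB1 averaged below 1 at 60 of 81 members and LAP2B at 59, while IGG did so at 20. The members' median LMNB1 level per bin was 0.533, 0.872 and 0.833 in the 3 libraries, or 0.746 ± 0.186 (SD, n = 3). Their median LAP2B level was 0.762, 0.626 and 0.766, or 0.718 ± 0.0794 (SD, n = 3). For IGG it was 1.18, 1.25 and 1.24, or 1.22 ± 0.0414 (SD, n = 3). The IGG control thus lay above the median gene where both lamina antibodies lay below it. Protein-coding genes of up to 12 bins, a class of like length, had medians of 0.896 ± 0.0884 for LMNB1, 0.950 ± 0.0573 for LAP2B and 1.08 ± 0.0174 for IGG (SD, n = 3 each).

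**Figure D1:**
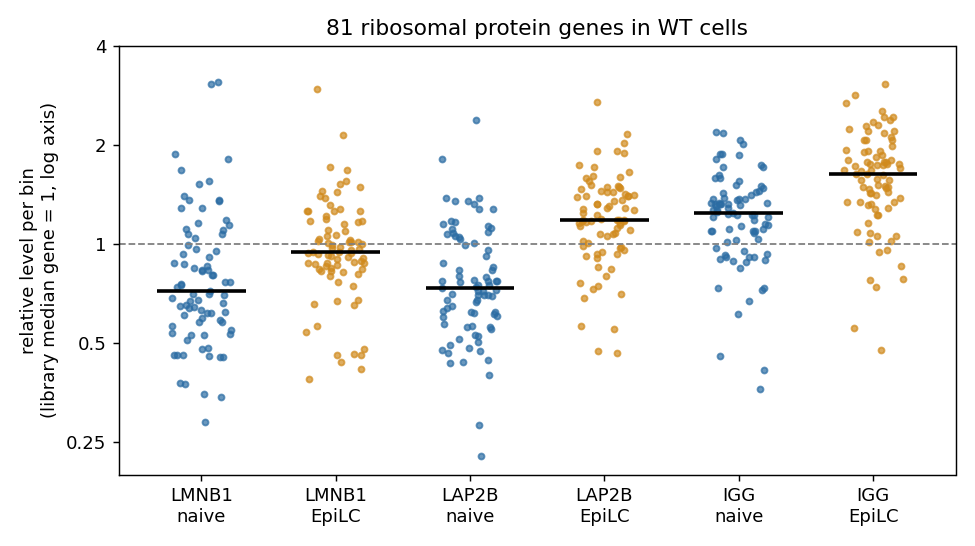
Relative level per bin (log axis, library median gene at 1) of each of the 81 members, as points, in WT LMNB1, LAP2B and IGG at both stages, each point being the mean of 3 libraries and black lines the medians over members. Naive LMNB1 and LAP2B medians lie under 1 and IGG medians over it, and Rpl10l is the highest LMNB1 point at both stages.

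The members with most naive LMNB1 were Rpl10l and Rps4l, each a copy of another member. Rpl10l, an intronless testis copy of Rpl10 (which joins the large subunit late in its assembly), had LMNB1 levels per bin of 3.56, 3.42 and 2.37, and its parent on the X chromosome had 0.533, 0.351 and 0.489. Rps4l, a copy of Rps4x, had 3.16, 3.27 and 2.77 against 0.144, 0.37 and 0.622 for its parent. In both pairs all 3 libraries of the copy lay above all 3 of the parent. Rps13, of the small subunit, was next in LMNB1 with 1.87 ± 0.216 (SD, n = 3). The naive WT IGG control differed in the same direction in both pairs. Its mean relative level, summed over bins, was 0.636 at Rpl10l over 2 bins and 0.446 at Rpl10 over 3. Rps4l, with a sum of 0.651 over 2 bins, also lay above Rps4x, which spans 6. These IGG values are sums, whereas the LMNB1 levels above are per bin. Each copy spans fewer bins than its parent, so the IGG gap per bin is wider than these sums show in both pairs. Both parents lie on the X chromosome, and the study describes the cells as XY. The parts of the IGG pattern and of X copy number in these gaps were not tested.

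The other paralogs were near their parents. Rpl3l, the muscle form of Rpl3, had LMNB1 levels per bin of 0.32, 0.526 and 0.76 against 0.416, 0.449 and 0.512. Rpl39l and Rps27l overlapped Rpl39 and Rps27 in the same way. Among the lowest members were Rpl4 at 0.343 ± 0.063 and Rplp1 at 0.35 ± 0.26 (SD, n = 3 each), which do not differ beyond their spread. LAP2B again put Rpl10l (2.38 ± 0.375) and Rps4l (1.81 ± 0.334) first, followed by Rps23 (1.38 ± 0.267), and put Rpl37a (0.227 ± 0.165), Rps4x (0.282 ± 0.078) and Rpl23 (0.398 ± 0.145) last (SD, n = 3 each).

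On the relative scale LAP2B was higher over nearly all members in naive QKO cells, which lack the lamins and LBR. There 76 of 81 were called higher and 0 lower in QKO, against 33.1% higher and 42.6% lower of all genes tested, and 74 had no overlap between QKO and WT libraries, against 33.3% of all genes in that direction. Their median log2 change was 1.505, beside -0.22 for all genes tested and 0.46 for protein-coding genes of up to 12 bins. Under other scalings 70 to 77 members were higher, while the share of higher calls among all genes called moved from 43.8% to between 35.4% and 51.6%. On the spike-in scale 32 members were called higher and 4 lower, against 10.1% and 65.4% of all genes, with a median log2 change of 0.39. The members' median level per bin was 3.37, 2.52 and 3.11 in QKO, above every WT library.

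Rpl23, which lies on the face of the large subunit that meets the small one, changed most. Its relative LAP2B level was 5.67, 4.96 and 4.90 in naive QKO against 0.375, 0.364 and 0.654 in WT, a log2 change of 3.20 ± 0.24 (SE, limma adjusted p = 2.8e-17). All QKO libraries lay far above all WT libraries. Rpl3, a core protein of the large subunit, stood at 17.4, 14.0 and 16.6 against 1.94, 1.98 and 1.92, a log2 change of 2.95 ± 0.13 (SE, limma adjusted p = 5.6e-26). Its libraries did not overlap either. Rpl3 spans 16 bins and Rpl23 6, so these levels are not comparable between genes. The span used for Rpl3 (chr15:79961988-79976069, minus strand) runs upstream of the canonical start shown above. Its values thus include signal from outside the canonical transcript.

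The 5 members not called in naive QKO were Rpl10l, Rps4l, Rps23, Rpl34 and Rps29. They include both members with most naive WT LMNB1. Rpl10l had relative LAP2B levels of 0.844, 0.733 and 0.618 against 1.08, 0.909 and 0.788 in WT (log2 change -0.29, limma adjusted p = 0.28), and Rps4l had 0.800, 0.552 and 0.706 against 0.556, 0.773 and 0.788 (log2 change -0.03, limma adjusted p = 0.91). The libraries of QKO and WT overlapped at both genes. Their parents Rpl10 and Rps4x rose by 1.98 and 1.42 on the log2 scale (limma adjusted p = 1.3e-08 and 8.2e-06).

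**Figure D2:**
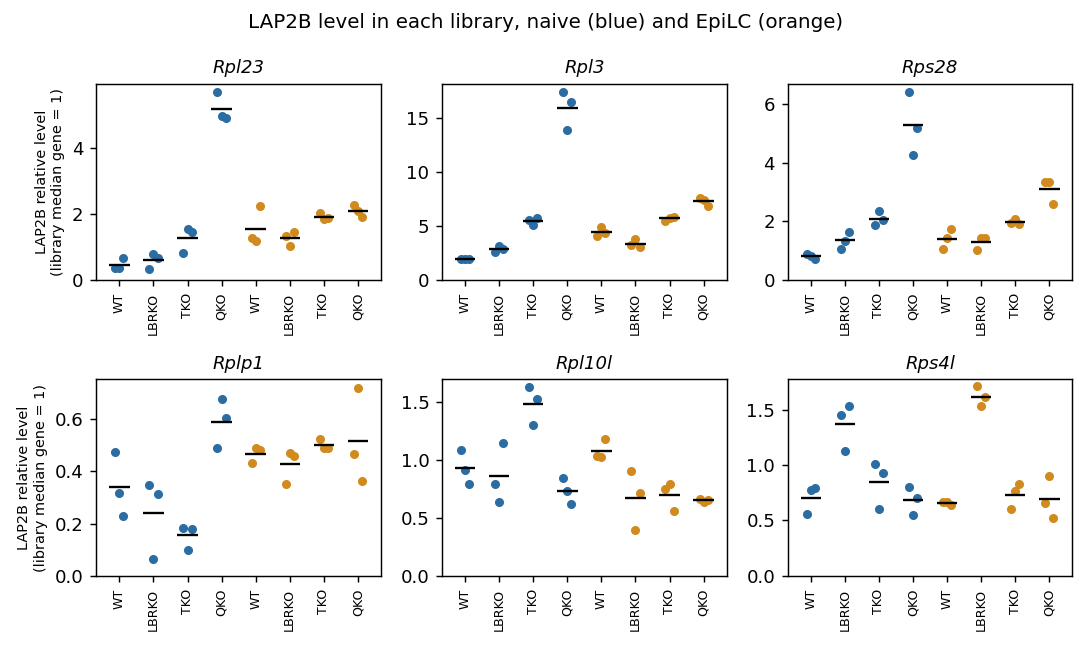
LAP2B relative level (linear axis from 0, library median gene at 1) of Rpl23, Rpl3, Rps28, Rplp1, Rpl10l and Rps4l in each library, as points, with black lines at the means of 3, for WT, LBRKO, TKO and QKO in naive cells and EpiLCs. Naive QKO stands above all other groups at the first 3 genes, and LBRKO stands highest at Rps4l.

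Across the 81 members, the naive QKO change was larger where WT LMNB1 was lower (Pearson's r = -0.61, Spearman's rho = -0.54) and where more protein-coding genes lay within 100 kb (r = 0.64, rho = 0.65). Over 7602 protein-coding genes of up to 12 bins the same rho was -0.72 with LMNB1, which is stronger, and 0.34 with neighbours, which is weaker. The change subtracts the naive WT LAP2B level, which itself went with WT LMNB1 (rho = 0.66 over members, 0.91 over 8170 short genes). A negative correlation of the change with LMNB1 is thus partly built in. The naive QKO level per bin went with WT LMNB1 with a rho of -0.17 over members and -0.20 over those short genes. These correlations describe genes of the same libraries, some of them neighbours, and carry no p. The QKO change itself went with naive WT IGG with a rho of 0.32 over members and 0.50 over the short genes. The naive QKO level per bin went with the naive WT IGG level (rho = 0.63), as it did in WT naive LAP2B (rho = 0.49). Over 8170 protein-coding genes of up to 12 bins these were 0.75 in QKO and 0.22 in WT. In EpiLCs the TKO and QKO levels went with EpiLC IGG with a rho of 0.85 and 0.83 over members and 0.92 and 0.91 over the short genes. The part of the IGG pattern in the QKO change was not tested, since IGG was mapped in WT only.

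**Figure D3:**
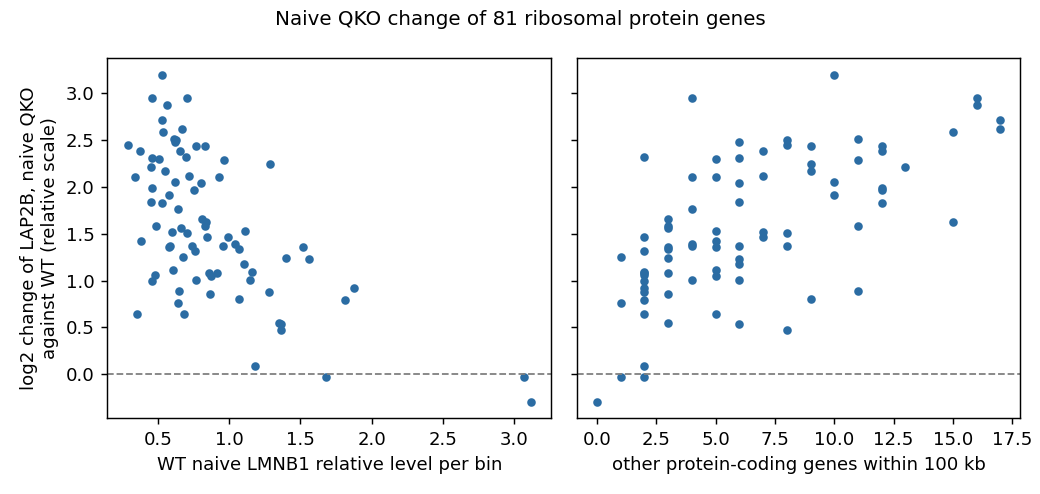
Log2 change of LAP2B in naive QKO against WT (relative scale) for each of the 81 members, plotted against the WT naive LMNB1 relative level per bin on the left and against the number of other protein-coding genes within 100 kb on the right. The change falls as LMNB1 rises (r = -0.61) and grows with the number of neighbours (r = 0.64). The change subtracts the WT LAP2B level, which itself went with WT LMNB1 (rho = 0.66), so the left panel is partly built in.

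The rise in naive TKO, which lacks the lamins alone, was smaller. There 64 of 81 members were called higher and 1 lower on the relative scale (10 and 1 on the spike-in scale, where 2.38% and 47.6% of all genes were), against 21.7% and 27.9% of all genes, with a median log2 change of 0.74 beside -0.11 for all genes. The median level per bin was 1.39 in its lowest library and 1.54 in its highest. Rps26, of the small subunit, had 0.974, 1.68 and 1.48 against 0.708, 0.136 and 0.462 in WT (log2 change 1.54 ± 0.29 SE, limma adjusted p = 1.6e-05). Rpl36, of the large subunit, rose by 1.49 ± 0.28 and Rpl3 by 1.44 ± 0.13 on the log2 scale (SE, limma adjusted p = 1.2e-05 and 1.1e-12). The member called lower, Rplp1 of the ribosomal stalk, had 0.184, 0.100 and 0.179 against 0.472, 0.318 and 0.231, without overlap (log2 change -0.71, limma adjusted p = 0.036), but this call was lost with edgeR and with DESeq2 on this scale. On the spike-in scale limma and edgeR both called the fall (log2 change -1.09, limma adjusted p = 0.0036, edgeR adjusted p = 0.0027). The relative TKO levels of Rplp1 lie near the pseudocount, 0.1 of the table median, so its fall rests on few reads. Dividing libraries by the median short protein-coding gene instead left 41 of 81 members called in naive TKO, and moved the share of higher calls among all genes called from 43.8% to 25.5%. Dividing by the mean gene moved it to 69.2%.

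Fewer members changed in naive LBRKO. There 25 were called higher and 3 lower, against 28.9% and 27.9% of all genes, so the members' higher share was near the background. Rpl5, which binds 5S rRNA, had relative levels of 6.13, 3.10 and 5.78 against 1.51, 1.57 and 1.25 in WT (log2 change 1.65 ± 0.19 SE, limma adjusted p = 8.6e-11). Rps27l and Rps13 rose by 1.31 ± 0.24 and 1.22 ± 0.21 on the log2 scale (SE, limma adjusted p = 7.9e-06 and 2.9e-06). Rps15 and Rpl15 fell by 0.84 and 0.62 (limma adjusted p = 0.0091 and 0.025), without overlap between the groups, and were not called on the spike-in scale (limma adjusted p = 0.054 and 0.22).

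The 4 genes that the rule names singly were read in the same comparisons. Rpsa, a small subunit protein that is also a laminin receptor, rose in naive LBRKO, TKO and QKO by 1.13, 1.33 and 2.11 on the log2 scale (limma adjusted p = 1.6e-05, 1.2e-06 and 1.3e-12). Rplp2 rose by 0.95, 1.20 and 2.44 (limma adjusted p = 6e-05, 1.6e-06 and 3.4e-16). Rplp0, which anchors the stalk, rose in TKO and QKO by 0.98 and 2.31 (limma adjusted p = 0.0018 and 3e-11) and had a log2 change of 0.19 in LBRKO (limma adjusted p = 0.55). Rplp1, called lower in TKO from few reads, had a log2 change of -0.42 in LBRKO (limma adjusted p = 0.22) and rose by 0.64 in QKO (limma adjusted p = 0.042). On the spike-in scale the TKO calls of Rplp2 and Rplp0 were lost (log2 changes 0.63 and 0.46, limma adjusted p = 0.071 and 0.23), as was the QKO call of Rplp1 (-0.30, limma adjusted p = 0.41).

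**Figure D4:**
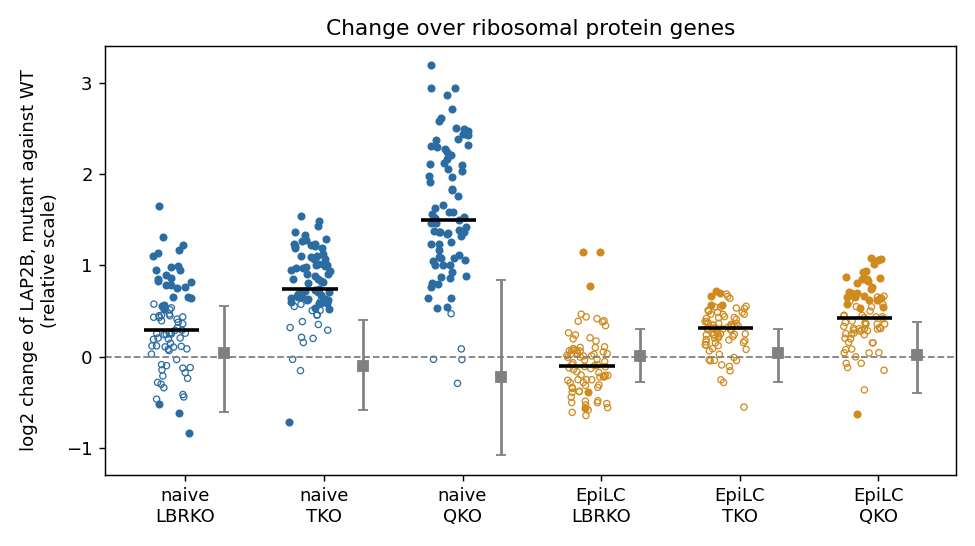
Log2 change of LAP2B against WT on the relative scale for each member (points, filled where limma's adjusted p was under 0.05) in the 6 comparisons, black lines being the members' medians and grey squares with bars the median and quartiles of all genes tested. The members' median is highest in naive QKO (1.505) and lies at -0.10 in EpiLC LBRKO.

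In EpiLCs the changes were smaller. On the relative scale QKO had 28 members higher and 1 lower (all genes 18.4% and 18.0%), TKO had 5 higher and 0 lower (8.73% and 10.1%), and LBRKO had 3 higher and 2 lower (13.4% and 10.2%). The median log2 changes were 0.43, 0.31 and -0.10. Leaving out TKO replicate 1 or 2 lowered the TKO count to 2 or 1, and the LBRKO count was 3 without WT replicate 3 or LBRKO replicate 1 or 3. Scaling by the mean gene turned the LBRKO split to 2 higher and 5 lower. In EpiLC QKO Rps28, of the small subunit, had 3.36, 3.36 and 2.59 against 1.07, 1.44 and 1.73 in WT (log2 change 1.08 ± 0.20 SE, limma adjusted p = 2.3e-05), with all QKO libraries higher. Rpl10 and Rps16 rose by 1.07 and 1.06 (limma adjusted p = 0.0022 and 0.001). On the spike-in scale none of these 3 was called, with log2 changes of 0.25, 0.35 and 0.27 (limma adjusted p = 0.47, 0.36 and 0.49), and the members' split turned to 0 higher and 11 lower.

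Rpl10l was the member called lower in EpiLC QKO, at 0.659, 0.640 and 0.657 against 1.03, 1.02 and 1.18 (log2 change -0.63), though edgeR did not call it. Leaving out any of the 6 libraries also ended this call. On the spike-in scale, where 55.7% of all genes were called lower, limma and edgeR both called the fall (log2 change -1.39, limma adjusted p = 0.00012, edgeR adjusted p = 1.0e-04). In EpiLC TKO Rpl26, Rpl12 and Rpsa rose by 0.71, 0.69 and 0.67 (limma adjusted p = 0.036, 0.019 and 0.025), and none was called on the spike-in scale (limma adjusted p = 0.41, 0.44 and 0.47). In EpiLC LBRKO Rps4l, on distal chromosome 6, had 1.71, 1.53 and 1.61 against 0.667, 0.667 and 0.643 in WT (log2 change 1.15 ± 0.24 SE, limma adjusted p = 0.00023). Naive LBRKO showed the same direction at Rps4l (log2 change 0.85, limma adjusted p = 0.0026). All genes tested on chromosome 6 had a median log2 change of 0.25 in naive LBRKO, and the part of chromosome copy number in the Rps4l change was not tested.

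The genotype effect itself was compared between stages by an interaction contrast, on the relative scale only. On the spike-in scale, where the members' EpiLC QKO changes lay mostly below 0, this contrast was not run. The signed log2 effect of QKO was lower in EpiLCs at 59 of 81 members and higher at 0, against 21.0% and 25.0% of all genes, with a median difference of -1.15 on the log2 scale. For TKO 9 members and for LBRKO 11 had a lower signed effect in EpiLCs (3.81% and 9.58% of all genes), and 0 a higher one (5.88% and 10.4%). The fitted change went from above 0 in naive cells to below 0 in EpiLCs at 4 of the 59 members for QKO, 4 of the 9 for TKO and 8 of the 11 for LBRKO. Of these, only Rpl3 in LBRKO was itself called lower in EpiLCs. The share of all genes that turned sign was not counted. In LBRKO Rpl3 rose by 0.52 on the log2 scale in naive cells and fell by 0.39 in EpiLCs (limma adjusted p = 0.00086 and 0.025). Its EpiLC fall was not called on the spike-in scale (log2 change -0.36, limma adjusted p = 0.43). The TKO count fell to 1 without TKO EpiLC replicate 3, and to 2 without WT naive replicate 2, TKO naive replicate 3 or WT EpiLC replicate 3. At Rpl23 the QKO effect was lower in EpiLCs by 2.74 ± 0.34 on the log2 scale (SE, limma adjusted p = 5.1e-09). WT EpiLCs already had 1.27, 1.17 and 2.23 there, which all lay above the WT naive libraries.

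**Figure D5:**
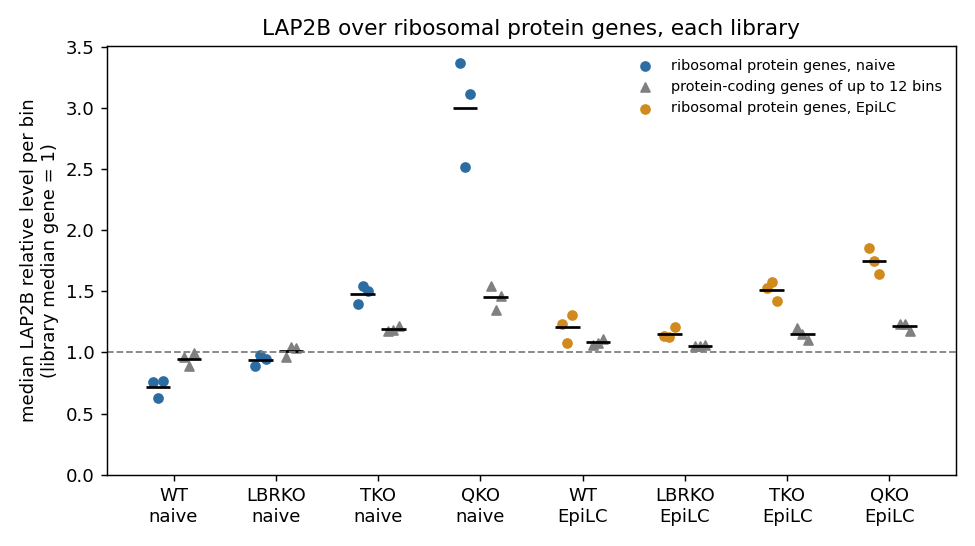
Median LAP2B relative level per bin (library median gene at 1) over the 81 members, as circles, and over protein-coding genes of up to 12 bins, as triangles, for each of the 24 LAP2B libraries, with black lines at the means of 3. Members lie below the triangles in naive WT and well above them in naive QKO, with 2.52 to 3.37 in the 3 libraries.

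From naive to EpiLC, WT cells gained LAP2B over the members. On the relative scale 43 of 81 were called higher and 0 lower, against 15.1% and 17.4% of all genes, with a median log2 change of 0.65. The median level per bin in EpiLCs was 1.23, 1.08 and 1.31. LMNB1 was called higher at 8 members and lower at 0 (6.38% and 7.14% of all genes), led by Rplp0, Rpl36 and Rpl13a. Rplp0 had 1.19, 0.793 and 1.00 in EpiLCs against 0.145, 0.818 and 0.377, which overlap. Without EpiLC LMNB1 replicate 1 the count was 0, without EpiLC replicate 3 it was 1, without naive replicate 1 it was 3, and without naive replicate 2 it was 14. IGG moved in the same direction: 1 member, Rps9, was called higher and 0 lower (0.0838% and 0.45% of all genes), the members' median log2 change was 0.31, and their median level per bin was 1.86, 1.62 and 1.38 in EpiLCs. The Rps9 call was lost on leaving out any library but naive replicate 3. The part of this control in the LAP2B rise was not tested.

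The spike-in scale, on which libraries were not divided by their median gene, gave other counts. In naive QKO the median log2 change of 0.39 for members stood beside -1.19 for all genes. Rpl23 stood at 6.18, 4.58 and 5.27 in QKO against 0.793, 1.04 and 1.55 in WT (log2 change 2.03 ± 0.31 SE, limma adjusted p = 1.9e-10). The 4 lower members in naive QKO were Rpl10l, Rps4l, Rps23 and Rpl34, each among those not called on the relative scale. In naive TKO 10 were higher and 1 lower (2.38% and 47.6% of all genes), and in naive LBRKO 25 and 0 (28.3% and 18.0%). The TKO count of 11 fell to between 3 and 7 without WT replicate 1 or 2 or TKO replicate 2 or 3, and the LBRKO count to 16 without LBRKO replicate 3.

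In EpiLCs on the spike-in scale QKO had 0 members higher and 11 lower (0.117% and 55.7% of all genes), so the direction of the QKO change there depends on the scale. Leaving out 1 library moved the 11 to between 3 (without WT replicate 3) and 26 (without WT replicate 2). TKO had 0 called by limma and by edgeR, with 1 member at an unadjusted p under 0.05, against 0.101% of all genes higher and 9.6% lower. LBRKO had 2 higher and 0 lower (5.65% and 3.58%). From naive to EpiLC in WT, LAP2B was higher at 36 members (10.4% of all genes, and 1.85% lower), and at 13 without EpiLC replicate 3. LMNB1 was higher at 15 (7.98%, and 0.246% lower), and at 0 without naive replicate 1 or EpiLC replicate 1 or 3. It was also at 0 with the replicate number added to the model as a block. IGG had 0 called by limma and by edgeR among all genes, with 24238 genes and 70 members at an unadjusted p under 0.05, and 53 members were called without EpiLC replicate 3. The fitted IGG change was above 0 at all 81 members (log2 0.28 to 1.97, median 1.25, against 0.90 for all genes and 0.83 for the members' LAP2B). The members' spike-in IGG level per bin was 0.132 ± 0.0253 in naive cells and 0.378 ± 0.214 in EpiLCs (SD, n = 3 each). The deposited factor multiplies RPKM, which already divides by depth, so it is not a ratio of reads to yeast reads. With the factor applied to reads instead, an alternative chosen after seeing the data, 60 members were called for naive LBRKO, 7 for naive TKO, 50 for naive QKO, 13 for EpiLC LBRKO, 4 for EpiLC QKO and 6 for LMNB1. The members' median log2 change then reversed in naive TKO (0.19 to -0.011), EpiLC LBRKO (-0.07 to 0.33) and EpiLC QKO (-0.38 to 0.081).

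Other gene groups were read the same way. In naive QKO on the relative scale, ribosome biogenesis factors had 24 of 30 higher and 2 lower (median log2 change 1.65), translation factors 26 and 3 of 32 (1.62), mitochondrial ribosomal proteins 54 and 12 of 78 (1.17), RNA polymerase I 11 and 2 of 14 tested (1.08), and proteasome subunits 31 and 6 of 38 tested (0.95). Ribosomal proteins outside the symbol rule, such as Rps3a1 and Fau, had 6 of 7 higher. Processed pseudogenes of the members differed in direction, with 49 higher and 66 lower of 207 tested and a median of -0.27. All genes tested leaned the same way as these pseudogenes, with 33.1% higher, 42.6% lower and a median of -0.22. Of the members themselves, 47 of 49 large and 29 of 32 small subunit genes were higher. All mutant comparisons of a stage share their WT libraries, as does the comparison between stages, so their values stand side by side and are not independent.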

How the data were processed

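Per the labels and the study's methods, the authors aligned reads to mm39 with Bowtie2 2.3.5.1, processed them with SAMtools 1.10, removed duplicates, and made deepTools RPKM signal in 1 kb bins, multiplied by a factor from yeast (sacCer3) reads. The methods name the GENCODE M30 annotation for the coverage step, which was not used here, and do not describe how bins became deposited gene values. These were read from the values as sums over the bins a gene touches, with spans inferred from GENCODE M39 transcripts numbered up to 385000, under which 26 of 16093 genes lay below a gene they contain. Levels per bin depend on these spans. Every value was a whole multiple of 1 read (within 0.1).

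Genes in the lowest 10% by mean were left out. Relative values were divided by the library's median over genes. With a pseudocount of 0.1 of the table median, log2 values were tested two-sided by limma 3.58.1 in R 4.3.3 in 1 model per antibody, with Benjamini-Hochberg adjustment over all genes tested. Fold changes are on the log2(value + pseudocount) scale, which understates low genes. Alternatives used edgeR 4.0.16 and DESeq2 1.42.0 on recovered reads. On simulated data for naive QKO (70381 genes), limma recovered 98% of 3-fold, 52% of 2-fold and 10% of 1.5-fold changes. Only 50 genes were changed at each fold, with the same dispersion for every gene. The changed genes were drawn from those above a floor on mean reads, so the rates do not cover genes with few reads. The real naive QKO test called far more genes (33.1% higher and 42.6% lower), so these rates need not hold there. Chi-square per gene between replicates was 3.37 to 12.6, so counting error is not the limit and no libraries were merged.

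Named genes are the up to 3 largest called, non-overlapping rises and falls per mutant comparison, the extremes of naive LMNB1 and LAP2B, the called LMNB1 stage changes, the paralog pairs and the 4 genes named in the rule. Members and lists were chosen with earlier results of these data known. The pyrimidine windows after the first were chosen after its share was seen. Some genes that this rule names are not reported here. The 2 H3K9me3 samples and the transposon tables were not analysed here.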

Additional observations from a re-analysis of the deposited data

Results flagged for a closer look

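Genotype effects that differed between naive cells and EpiLCs by the interaction contrast (limma, relative scale, all genes adjusted together) are listed here. The contrast was not run on the spike-in scale. The number of members whose effect differed was 59 for QKO, 9 for TKO and 11 for LBRKO, and in each case the signed log2 effect was lower in EpiLCs. The fitted change was above 0 in naive cells and below 0 in EpiLCs at 4, 4 and 8 of these members. Only Rpl3 in LBRKO was itself called lower in EpiLCs, and the share of all genes that turned sign was not counted. The 59, 9 and 11 are 72.8%, 11.1% and 13.6% of the members, while 21.0%, 3.81% and 9.58% of all genes had a lower effect in EpiLCs. No member had a higher effect, against 25.0%, 5.88% and 10.4% of all genes. The TKO count was between 1 and 11 on leaving out 1 library, 24 with libraries divided by their mean gene, which moved the share of higher calls among all genes called from 60.67% to 16.01%, and 24 and 25 with edgeR and DESeq2.

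The genes listed next are reported ones among the largest rises and falls of the same genotype against WT. For them the QKO effect in EpiLCs minus that in naive cells was -2.74 on the log2 scale at Rpl23, -2.25 at Rpl3, -1.43 at Rps28 and -1.15 at Rps16. The TKO effect differed by -1.30 at Rps26, -1.25 at Rpl36 and -1.08 at Rpl3. The LBRKO effect differed by -0.91 at Rpl3. Other genes named in this report differed too, among them Rplp0 for QKO (-2.03) and TKO (-1.14), and Rplp2 for LBRKO (-0.94). All 3 comparisons share the WT libraries, and no cause was tested.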

How the results depend on the processing

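Counts are members called of 81 unless said. Among alternatives that keep all libraries, 191 values of the counts and levels stayed within their limits and 58 moved. The 48 members that share no bin with another protein-coding gene, a restriction chosen after seeing the data, are fewer by construction. On the relative scale they gave 15, 37 and 44 calls for naive LBRKO, TKO and QKO, 1, 3 and 13 in EpiLCs, 22 and 2 for LAP2B and LMNB1 between stages, and 6, 4 and 30 for the LBRKO, TKO and QKO interactions. On the spike-in scale they gave 14, 5 and 18 in naive cells, 0 and 7 for EpiLC LBRKO and QKO, and 17 and 5 for LAP2B and LMNB1 between stages.

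On the relative scale, scaling by the median short protein-coding gene gave 41 for naive TKO, 3 for EpiLC LBRKO, 3 for the TKO interaction and 2 for LMNB1. Scaling by the mean gene gave 13 for EpiLC TKO, and 18 and 24 for the LBRKO and TKO interactions. edgeR gave 14, 18 and 24 for the same results, and DESeq2 gave 9, 18 and 25, with 8 for EpiLC LBRKO and 2 for IGG. A pseudocount of 1 table median gave 9 for EpiLC TKO, 3 for the TKO interaction and, on the spike-in scale, 4 for naive TKO, and one of 0.01 gave 0 for IGG. Testing protein-coding genes only gave 14 for EpiLC TKO, 2 for IGG and 7 for naive TKO on the spike-in scale. With no filter on low values the TKO interaction had 5, LMNB1 0 on both scales, IGG 0, and on the spike-in scale naive TKO 4 and LAP2B between stages 14. Outside chromosomes 6, 8, X and Y, EpiLC LBRKO had 1 on the spike-in scale.

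Applying the spike-in factor to reads, which removes the division by depth, gave 60 for naive LBRKO, 7 for naive TKO, 13 for EpiLC LBRKO, 4 for EpiLC QKO and 6 for LMNB1. The median log2 change reversed in naive TKO (-0.011), EpiLC LBRKO (0.33) and EpiLC QKO (0.081). For other moved values the cause was not tested. WT levels moved with spans of all M39 transcripts to 0.849 for EpiLC LMNB1, 1.08 for EpiLC LAP2B and 1.14 for naive IGG, which was 1.14 when not divided by bins and 1.16 without shared bins.

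Leaving out 1 library gave, on the relative scale, 23 to 31, 46 to 61 and 71 to 75 for naive LBRKO, TKO and QKO, 3 to 5, 1 to 6 and 21 to 28 in EpiLCs, 31 to 49 for LAP2B between stages, 0 to 14 for LMNB1, 0 to 1 for IGG, and 7 to 16, 1 to 11 and 54 to 63 for the interactions. On the spike-in scale it gave 16 to 37, 3 to 13 and 29 to 38 in naive cells, 2 to 2, 0 to 2 and 3 to 26 in EpiLCs, 13 to 46, 0 to 27 and 0 to 53 for LAP2B, LMNB1 and IGG. The spike-in median reversed for EpiLC LBRKO (0.071 without WT replicate 3, 0.0077 without LBRKO replicate 2, range -0.28 to 0.071) and for EpiLC TKO (-0.14 without WT replicate 2, -0.19 without TKO replicate 1, range -0.19 to 0.27).

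Replicate numbers are shared between groups, but deviations of same-numbered libraries correlated from -0.25 to 0.18, with 3 of 90 pairs over 0.1. The main fits therefore did not pair the libraries. Such correlations cannot show that same-numbered libraries were prepared apart. With the replicate block LMNB1 on the spike-in scale had 0 calls, naive QKO had 76 and no other count moved by over 1.5 times. With 3 libraries a group, changes under 3-fold were often missed in simulated data, where few genes changed. Recovery in the real comparisons, where many genes were called, was not measured.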
